A study of Mus musculus with 16 samples.

Results

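Expression differences from untreated cells were examined in mouse embryonic stem cells that were given auxin to degrade the RNA helicase DDX10 and were then kept without auxin. The 2 libraries of cells given auxin for 2 days and then kept without it for 2 days (called withdrawal here) were compared with the 2 libraries of untreated cells, which makes 4 of the 16 libraries of the series. Of 14552 genes in the table, the 13355 whose mean across the 16 libraries reached 10 were compared. All cells were E14, a mouse embryonic stem cell line, of the genotype Ddx10-AID, Tir1: Ddx10 carries an auxin-inducible degron tag, and Tir1, an F-box protein of plants, hands tagged proteins to the proteasome when auxin is present. Every group, untreated cells included, carried both alleles and grew on gelatin with serum, 1000 U/mL LIF, 3 µM CHIR99021 (a GSK3 inhibitor) and 1 µM PD0325901 (a MEK inhibitor). Auxin was indole-3-acetic acid at 500 µM. The labels name 1 line, do not say whether it is 1 clone and do not tell if replicates were grown as different cultures. The p-values rest on the spread between replicate libraries, pooled over the 8 groups of the series, and this spread may be technical. Untagged cells given auxin were not analysed here, so effects of auxin itself and of DDX10 degradation cannot be told apart. Whether untreated cells spent as long in culture as the withdrawal cells is not given in the labels, so time in culture and withdrawal cannot be told apart either.

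DDX10 is a DEAD-box helicase of the nucleolus that takes part in making the small ribosomal subunit, whose RNA is 18S rRNA. When ribosome assembly fails, free ribosomal proteins bind MDM2 and stabilise p53, a transcription factor that induces cell cycle inhibitors and cell death genes. A degron acts on the protein and leaves the gene intact. The comparison asks which transcripts differ from the untreated level after auxin is withdrawn.

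The untreated libraries differed from each other more than the withdrawal libraries did. The log2 difference between the untreated replicates had an SD over genes of 0.619, with 1090 genes at least 2-fold apart, against 0.414 and 493 genes between the withdrawal replicates. Over all groups other than untreated this SD lay between 0.368 (12 h of auxin) and 0.533 (1 day). The spread pooled over the groups can therefore understate that of the untreated pair. Withdrawal replicates 1 and 2 were at least 2-fold from untreated replicate 1 at 830 and 827 genes, and from untreated replicate 2 at 1191 and 1123 genes. Both withdrawal libraries were thus closer to untreated replicate 1 than the untreated replicates were to each other. Across the 13355 genes, which share libraries and are not independent, Pearson's r on log2 values was 0.980 for either withdrawal library with untreated replicate 1, 0.971 and 0.972 with untreated replicate 2, and 0.973 between the untreated libraries. Normalized totals lay between 16397227 and 16900740 in the 4 libraries.

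Ddx10 mRNA (ENSMUSG00000053289, chromosome 9, 53098635 to 53248053, GRCm38) was at 1433 and 1509 normalized counts in the untreated libraries and at 1695 and 1498 after withdrawal, so the groups overlapped (log2 change 0.12, standard error 0.11, limma adjusted p = 0.642). It was at 997 and 1040.5 after 2 days of auxin. The tag acts on the protein, so mRNA does not show how much DDX10 was present. The stem cell identity of both groups was checked with Pou5f1, the gene of the pluripotency factor OCT4, at 23171 and 22339 untreated and 25252 and 24788 after withdrawal, and with Nanog at 15332 and 14325 untreated and 14930.0 and 15023 after withdrawal. Sox2 was at 8893 and 9555 untreated and 9835 and 9931 after withdrawal, and Esrrb at 19172 and 15077 untreated and 17886 and 17757 after withdrawal. None of these 4 transcription factor genes passed the test. Zfp42, a further marker of this check, was at 11173 and 12106 untreated and 10372 and 10379 after withdrawal. It did not pass either (limma adjusted p = 0.162). Pou5f1 and Sox2 lay above both untreated libraries after withdrawal and Zfp42 below both.

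After withdrawal 373 genes (2.79%) were called different from untreated cells: 230 were higher (1.72% of those tested) and 143 lower (1.07%). A call here is an adjusted p below 0.05 from limma's moderated test with Benjamini-Hochberg adjustment over all 13355 genes, on log2(normalized count + 1). For every called gene both withdrawal libraries lay on the same side of both untreated libraries. Such absence of overlap alone was common, at 43.4% of all genes, with 2767 higher (20.7%) and 3032 lower (22.7%), so it is not a result by itself. At least 2-fold changes were found in 93 of the genes called higher (0.696% of those tested) and 38 of those called lower (0.285%). In the comparison of 2 days of auxin with the same untreated libraries, 44.8% of genes were called, 2806 higher (21.0%) and 3179 lower (23.8%). The 2 comparisons share their controls.

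**Figure D1:**
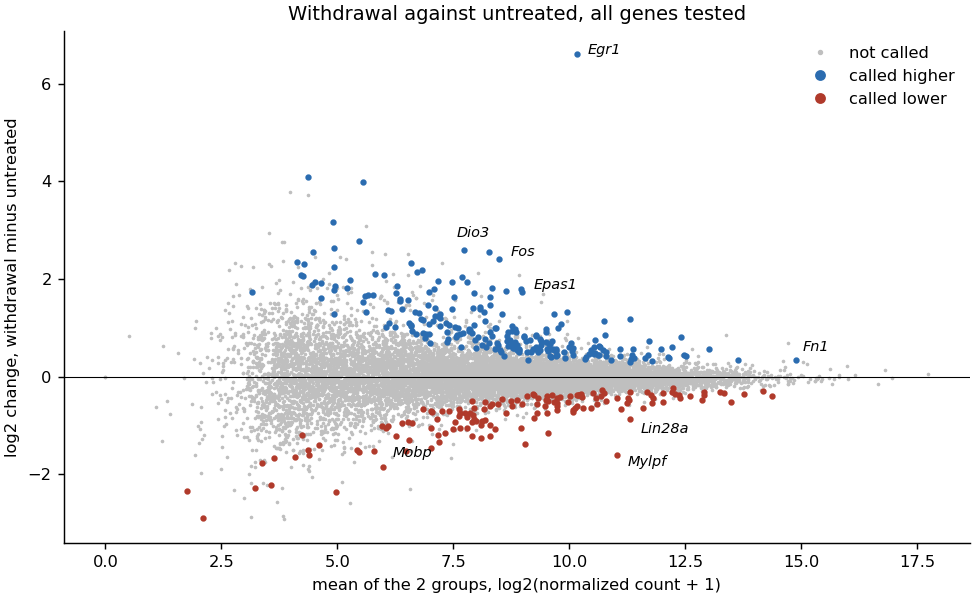
Log2 change between withdrawal and untreated cells (vertical axis) against the mean level of both groups on the scale of log2(normalized count + 1) (horizontal axis), with 1 point per gene for 13355 genes. Blue points are the 230 genes called higher and red points the 143 called lower by limma at an adjusted p below 0.05, and Egr1 stands above all other called genes at a log2 change of 6.59.

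How many genes were called depended on single libraries. Without withdrawal replicate 1 the count was 67, and 63 of the 373 genes were among them. Without withdrawal replicate 2 it was 69, with 59 of the 373. Leaving out untreated replicate 1 gave 1106 genes and leaving out untreated replicate 2 gave 382. A fit of the 4 libraries alone, with 2 residual degrees of freedom, called 1 gene, Egr1. For 24 genes called higher (0.180% of those tested) and 10 called lower (0.0749%) the call held with each of the 4 libraries left out in turn, and these 34 genes, a set known only after the values were seen, are called stable below. For the other genes, the libraries whose omission ended the call are given with the adjusted p.

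The stable genes that were higher came from different classes. Of those given here, Nptx2, Sox21 and Myof were chosen after their values were seen, outside the naming rule of the processing section. Dio3 (chromosome 12, 110279068 to 110281097), which encodes a deiodinase that inactivates thyroid hormone, was at 76.01 and 45.9 in untreated cells, 241 and 276 at 2 days of auxin and 370.1 and 352 after withdrawal (log2 change 2.59, standard error 0.24, limma adjusted p = 0.000136). Its withdrawal libraries were the highest of these 6. Epas1 (chromosome 17, 86753700 to 86833410), the gene of the hypoxia-inducible factor HIF-2alpha, was at 209 and 263 untreated, 529.7 and 473 at 2 days and 801 and 754 after withdrawal (log2 change 1.72, standard error 0.13, limma adjusted p = 5.46e-05). Nptx2, a neuronal pentraxin gene, was at 487 and 648 untreated and 614 and 589 at 2 days, which overlap, and at 1443 and 1371 after withdrawal (log2 change 1.32, standard error 0.12, limma adjusted p = 0.000136). Sox21, a transcription factor gene of the SOX family, lay between, at 213 and 218 untreated, 1185 and 1163 at 2 days and 578 and 476 after withdrawal (log2 change 1.28, adjusted p = 0.000134). Myof, a membrane repair protein gene, showed the same order, with 1869.5 and 1299 untreated, 6026 and 6041 at 2 days and 3503 and 3537 after withdrawal (log2 change 1.18, adjusted p = 0.000265).

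Among the stable genes that were lower, the fast skeletal myosin light chain gene Mylpf (chromosome 7, 127208890 to 127214298) was at 3568 and 2691 in untreated cells, 659 and 595 at 2 days and 1089 and 953 after withdrawal (log2 change -1.60, standard error 0.20, limma adjusted p = 0.00146). Lin28a (chromosome 4, 134003330 to 134018841), an RNA-binding protein gene that blocks maturation of let-7 microRNAs, was at 2794 and 3757 untreated, 814 and 894 at 2 days and 1764 and 1802 after withdrawal (log2 change -0.86, standard error 0.11, limma adjusted p = 0.00182). Ptrf, a gene of the caveolar coat also known as Cavin1, was at 402 and 367 untreated, 117 and 111 at 2 days and 163 and 158 after withdrawal (log2 change -1.25, adjusted p = 0.000136). In these 3 genes the withdrawal libraries lay between those of 2 days and the untreated ones. Mobp, a myelin protein gene, went the other way at 2 days, with 448 and 399 against 218 and 201 untreated, and was at 81.4 and 81.6 after withdrawal (log2 change -1.35, adjusted p = 0.00258). Palm3, a paralemmin gene, was at 1034 and 1009 untreated and lower at both later points, with 514 and 572 at 2 days and 494 and 425 after withdrawal (log2 change -1.15, adjusted p = 0.000683).

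**Figure D2:**
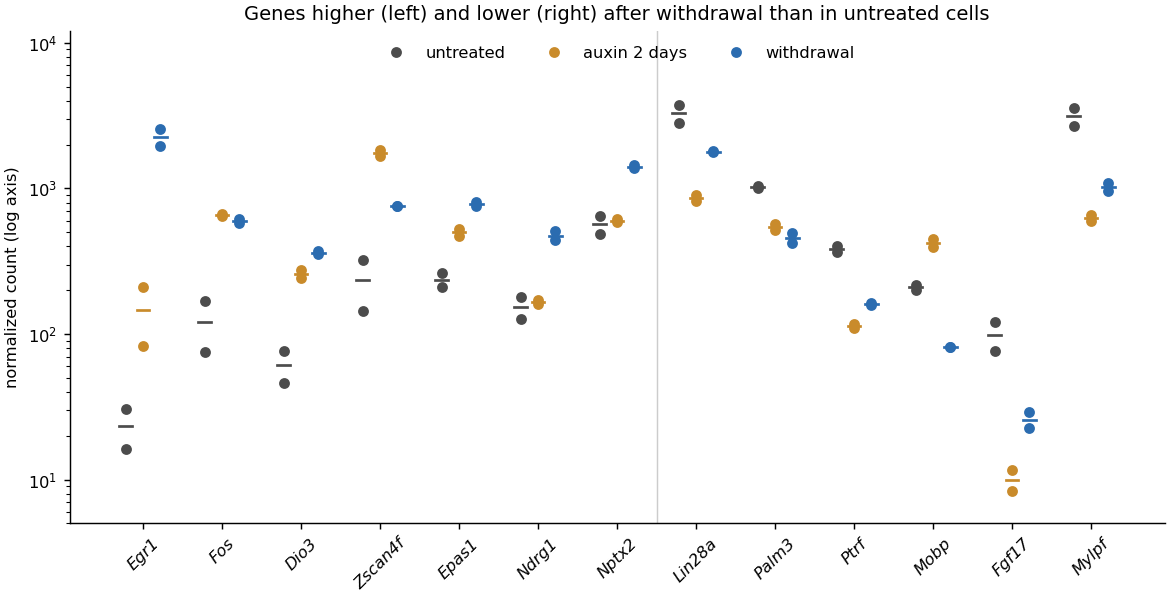
Normalized counts (log axis) of 13 genes in the 2 untreated, 2 auxin 2 days and 2 withdrawal libraries, with 1 point per library and a bar at each group's mean. Genes left of the grey line were called higher after withdrawal and genes right of it lower, and no withdrawal point lies within the untreated range of its gene.

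Immediate early genes are switched on within minutes by growth factor or stress signals without new protein synthesis, and they were the class with the largest single change. Of 20 tested, 7 were called higher and none lower, beside 1.72% higher among all genes, and the median log2 change of the list was 0.50 against -0.01 over all genes. The zinc finger transcription factor gene Egr1 (chromosome 18, 34859823 to 34864984) was at 30.3 and 16.2 untreated, 212 and 82.4 at 2 days and 2559 and 1960.1 after withdrawal (log2 change 6.59, standard error 1.07, limma adjusted p = 0.00717). Egr1 had adjusted p-values of 0.071 and 0.0568 without withdrawal replicates 1 and 2. Egr1 varied between replicates elsewhere in the series: at 1 day of auxin it was at 611 in replicate 1 and 16.4 in replicate 2, and in the 8 libraries of 2 to 12 h it lay between 8.47 and 21.5. Without withdrawal replicate 1 its log2 change was 6.40 and without replicate 2 it was 6.79.

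Other immediate early genes moved less. Fos, an AP-1 subunit gene (chromosome 12, 85473890 to 85477273), was stable at 168 and 75.03 untreated, 669 and 649 at 2 days and 617 and 577 after withdrawal (log2 change 2.40, standard error 0.35, limma adjusted p = 0.00432). Its withdrawal and 2 day libraries lay close together and above both untreated ones. Jun, its partner in AP-1, was at 176 and 96.5 untreated and 363 and 330.1 after withdrawal (log2 change 1.40, adjusted p = 0.00601). Jun had an adjusted p of 0.0668 without withdrawal replicate 1. Fosb, another AP-1 subunit gene, was at 55.8 and 27.4 untreated and 192 and 172 after withdrawal (log2 change 2.19, adjusted p = 0.046). Fosb had adjusted p-values of 0.184 without untreated replicate 2, 0.233 and 0.174 without withdrawal replicates 1 and 2. Dusp1, a MAP kinase phosphatase gene, was at 635 and 555 untreated and 1041 and 929 after withdrawal (log2 change 0.73, adjusted p = 0.00362). Dusp1 had an adjusted p of 0.0503 without withdrawal replicate 1. The other members called were Zfp36, which encodes an mRNA decay factor (log2 change 1.23, adjusted p = 0.0489, but 0.196 without untreated replicate 2, 0.251 and 0.166 without withdrawal replicates 1 and 2), and Ier2 (log2 change 0.46, adjusted p = 0.0187). Ier2 had adjusted p-values of 0.0813 without untreated replicate 2, 0.193 without withdrawal replicate 1. Junb, with 297 and 46.8 untreated, shows how far apart the untreated libraries could be, and at 423 and 328 after withdrawal it did not pass (adjusted p = 0.133). The number of members called was 10 without untreated replicate 1, 4 without untreated replicate 2, 1 without withdrawal replicate 1 and 4 without withdrawal replicate 2, and the list median ranged from 0.36 to 0.62 over these 4 fits.

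Glycolysis enzymes and targets of the hypoxia-inducible factors made up the list with the most calls. These factors accumulate when the prolyl hydroxylases that mark them for destruction are inactive, and they induce glycolytic enzymes and, as feedback, the hydroxylases themselves. Of 31 members tested 11 were called higher (1.72% among all genes) and none lower, with a median log2 change of 0.22, and 22 members lay above both untreated libraries without overlap (20.7% among all genes). At 2 days of auxin the same list had a median of -0.40, with 20 members called lower (23.8% among all genes) and 5 higher (21.0%). Ndrg1, a stress-responsive gene and a classical hypoxia target, was stable at 128 and 179.6 untreated, 171 and 160.5 at 2 days and 441 and 508 after withdrawal (log2 change 1.64, standard error 0.16, limma adjusted p = 0.000265). Bnip3, a mitophagy receptor gene, was at 338 and 645 untreated, 151 and 147 at 2 days and 1074 and 1214 after withdrawal (log2 change 1.29, adjusted p = 0.0187). Bnip3 had adjusted p-values of 0.0971 and 0.139 without withdrawal replicates 1 and 2. The prolyl hydroxylase gene Egln3 was at 150.2 and 171 untreated, 98.6 and 95.4 at 2 days and 329 and 335 after withdrawal (log2 change 1.05, adjusted p = 0.00767, but 0.0699 and 0.073 without withdrawal replicates 1 and 2), so it was below untreated at 2 days and above after withdrawal. Its relative Egln1 was at 332 and 277 untreated and 507 and 505 after withdrawal (log2 change 0.73, adjusted p = 0.00803). Egln1 had adjusted p-values of 0.0749 and 0.073 without withdrawal replicates 1 and 2.

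Glycolytic enzyme genes on the list differed in level and in size of change. Gpi1, glucose-6-phosphate isomerase, was at 11469 and 10975 untreated, 8698 and 8519 at 2 days and 14045 and 14522 after withdrawal (log2 change 0.35, adjusted p = 0.00502). Gpi1 had an adjusted p of 0.0662 without withdrawal replicate 2. The triosephosphate isomerase gene Tpi1 was at 4417 and 5248 untreated, 1151 and 1145 at 2 days and 6503 and 6569.7 after withdrawal (log2 change 0.44, adjusted p = 0.0313). Tpi1 had adjusted p-values of 0.0858 without untreated replicate 1, 0.161 and 0.157 without withdrawal replicates 1 and 2. Smaller changes were also called in the phosphofructokinase genes Pfkp (log2 change 0.42, adjusted p = 0.0198, but 0.0517 without untreated replicate 1, 0.0971 and 0.148 without withdrawal replicates 1 and 2) and Pfkl (log2 change 0.44, adjusted p = 0.0312). Pfkl had adjusted p-values of 0.0659 without untreated replicate 1, 0.133 and 0.177 without withdrawal replicates 1 and 2. The hexokinase gene Hk1 (log2 change 0.45, adjusted p = 0.0377, but 0.148 without untreated replicate 2, 0.2 and 0.154 without withdrawal replicates 1 and 2) and the collagen prolyl hydroxylase gene P4ha1 (log2 change 0.50, adjusted p = 0.0472, but 0.0832 and 0.0701 without untreated replicates 1 and 2, 0.218 and 0.189 without withdrawal replicates 1 and 2) were called higher too. Aldoc, an aldolase gene, was at 49.98 and 101 untreated, 77.7 and 66.7 at 2 days and 269 and 281 after withdrawal (log2 change 1.93, adjusted p = 0.0313). Aldoc had adjusted p-values of 0.0923 without untreated replicate 1, 0.159 and 0.156 without withdrawal replicates 1 and 2. Aldoa, the main aldolase gene, chosen after its values were seen, was at 33125 and 31923 untreated and 38380.0 and 39721 after withdrawal and did not pass (adjusted p = 0.0534). Ndufa4l2, a hypoxia target outside the list chosen after its values were seen, was at 5.01 and 4.10 untreated, 2.70 in one 2 day library and listed at 0 in the other, and at 74.00 and 100.5 after withdrawal (log2 change 3.98, adjusted p = 0.0131). All its untreated and 2 day values lay below the mean required for testing. Its withdrawal values counted towards that mean, so the gene may have been tested only because of them. Ndufa4l2 had adjusted p-values of 0.0919 and 0.116 without withdrawal replicates 1 and 2. The number of list members called was 9 without untreated replicate 1, 11 without untreated replicate 2, 2 without withdrawal replicate 1 and 1 without withdrawal replicate 2. The list median in these fits lay between 0.21 and 0.29.

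One form of the core of the site that hypoxia-inducible factors bind reads ACGTG, and 3 promoters of called members that hold it are shown. Other forms were not searched for and are not marked. They are the 250 bases before the RefSeq transcription start on GRCm38.p6, read 5′ to 3′ along the gene, with ACGTG or its reverse complement in capitals. In Bnip3 a match on each strand overlaps, so the capitals there cover both. The regions are chr12:54203875-54204124 (minus strand) for Egln3, chr7:138909507-138909756 (minus strand) for Bnip3 and chr10:59323046-59323295 (plus strand) for P4ha1.
Egln3: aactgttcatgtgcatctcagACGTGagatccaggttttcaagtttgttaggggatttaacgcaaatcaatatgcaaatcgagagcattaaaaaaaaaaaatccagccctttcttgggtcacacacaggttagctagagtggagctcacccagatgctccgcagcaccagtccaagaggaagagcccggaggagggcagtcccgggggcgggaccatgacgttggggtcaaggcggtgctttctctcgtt
Bnip3: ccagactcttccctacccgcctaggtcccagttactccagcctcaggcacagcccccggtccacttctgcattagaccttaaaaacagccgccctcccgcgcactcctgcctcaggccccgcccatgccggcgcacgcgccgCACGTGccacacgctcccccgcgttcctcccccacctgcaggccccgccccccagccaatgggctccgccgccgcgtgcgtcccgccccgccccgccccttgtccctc
P4ha1: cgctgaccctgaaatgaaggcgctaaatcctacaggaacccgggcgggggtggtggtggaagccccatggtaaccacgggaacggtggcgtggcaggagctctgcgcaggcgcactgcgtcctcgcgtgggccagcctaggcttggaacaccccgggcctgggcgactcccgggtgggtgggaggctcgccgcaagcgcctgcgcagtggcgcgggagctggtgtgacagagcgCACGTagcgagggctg
Counted on both strands, ACGTG was in the promoters of 4 of the 10 called members that have one in the table (Bnip3, Egln1, Egln3 and P4ha1), in 15 of the 27 tested members that have one, and in 25.3% of 9825 promoters of all genes tested. Among all genes called higher it was in 20.2% of 173 promoters and among those called lower in 25.3% of 99. A match is a description of these letters and does not show binding.

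Genes of the 2-cell stage, which a small and changing share of embryonic stem cells express in bursts, included some called higher. Of 21 entries tested 6 were called higher (1.72% among all genes) and none lower, the median log2 change was 1.47, and 17 lay above both untreated libraries (20.7% among all genes). Zscan4f (chromosome 7, 11397915 to 11402318), of a zinc finger family linked to telomere maintenance, was stable at 324 and 145 untreated, 1829.9 and 1672 at 2 days and 755 and 759 after withdrawal (log2 change 1.80, standard error 0.27, limma adjusted p = 0.00432). Zscan4c was at 228 and 117 untreated, 1301 and 1131 at 2 days and 416 and 495 after withdrawal (log2 change 1.47, adjusted p = 0.00855, but 0.0582 and 0.0932 without withdrawal replicates 1 and 2), and Zscan4b at 116 and 65.2 untreated, 771 and 679 at 2 days and 282 and 261 after withdrawal (log2 change 1.63, adjusted p = 0.00582). Zscan4b had an adjusted p of 0.0613 without withdrawal replicate 1. In all 3 the withdrawal libraries lay between the untreated and the 2 day ones. The predicted gene Gm8300, which is specific to this stage, was at 60.9 and 14.3 untreated, 248 and 232 at 2 days and 149 and 158 after withdrawal (log2 change 2.33, adjusted p = 0.0175). Gm8300 had adjusted p-values of 0.111 and 0.116 without withdrawal replicates 1 and 2. Usp17lc, a deubiquitinase gene, was at 40.2 and 13.04 untreated, 171 and 176 at 2 days and 94.9 and 106 after withdrawal (log2 change 2.08, adjusted p = 0.0259). Usp17lc had adjusted p-values of 0.11 without untreated replicate 2, 0.133 and 0.148 without withdrawal replicates 1 and 2. The sixth, the nuclear body protein gene Sp110, was at 25.01 and 7.74 untreated, 72.1 and 76.2 at 2 days and 47.2 and 71.5 after withdrawal (log2 change 1.97, adjusted p = 0.0487). Sp110 had adjusted p-values of 0.212 without untreated replicate 2, 0.137 and 0.259 without withdrawal replicates 1 and 2.

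Untreated replicate 1 was above replicate 2 in each of these 6 genes, so the size of the difference depends on which untreated library is used. Without untreated replicate 1 the list median was 2.04 with 12 members called, and without untreated replicate 2 it was 0.67 with 4. Without withdrawal replicate 1 or 2 the medians were 1.43 and 1.44, with 1 and 2 members called. In bulk libraries, more cells of a kind and more RNA per cell cannot be told apart. Dppa3, an early embryonic and germ cell factor gene, was at 54.5 and 14.2 untreated, 256 and 248 at 2 days and 36.1 and 40.7 after withdrawal, which overlaps the untreated pair.

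Zscan4 genes are near-identical copies, which their promoters show. The 250 bases before the RefSeq start of 3 of the called members follow, from chr7:11005495-11005744 (plus strand), chr7:11397665-11397914 (plus strand) and chr7:10905051-10905300 (minus strand), with the TATA box sequence TATAAA in capitals.
Zscan4c: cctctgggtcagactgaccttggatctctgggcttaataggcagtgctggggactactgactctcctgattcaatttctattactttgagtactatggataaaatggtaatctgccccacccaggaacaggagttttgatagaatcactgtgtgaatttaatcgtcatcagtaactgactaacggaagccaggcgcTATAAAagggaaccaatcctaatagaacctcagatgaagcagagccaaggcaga
Zscan4f: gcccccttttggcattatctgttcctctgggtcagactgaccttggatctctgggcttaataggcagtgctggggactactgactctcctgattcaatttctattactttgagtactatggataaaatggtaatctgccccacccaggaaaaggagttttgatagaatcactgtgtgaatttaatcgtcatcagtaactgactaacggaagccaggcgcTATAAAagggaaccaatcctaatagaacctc
Zscan4b: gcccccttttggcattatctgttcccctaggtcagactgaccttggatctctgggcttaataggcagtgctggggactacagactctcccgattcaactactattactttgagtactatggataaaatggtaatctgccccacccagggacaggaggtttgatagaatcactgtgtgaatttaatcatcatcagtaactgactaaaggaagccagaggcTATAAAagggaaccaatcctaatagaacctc
Where they align, Zscan4c and Zscan4f were 99.6% identical over 227 bases, Zscan4f and Zscan4b 94.8% over 250, and Zscan4c and Zscan4b 94.7% over 227. How reads were divided between such copies is uncertain. On either strand TATAAA was in 13.3% of 173 promoters of genes called higher, 7.07% of 99 of genes called lower and 7.49% of 9825 of all genes tested.

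Targets of Nodal, a TGF-beta family signal of the early embryo, included 3 of 14 called higher (1.72% among all genes) and none lower, with a median log2 change of 0.31. Lefty2, a Nodal antagonist gene, was at 835 and 1374 untreated, 889.6 and 975 at 2 days and 2330.2 and 2381 after withdrawal (log2 change 1.14, adjusted p = 0.00803). Lefty2 had adjusted p-values of 0.0719 and 0.0737 without withdrawal replicates 1 and 2. Tdgf1, the Nodal co-receptor gene, was at 4743 and 3286 untreated, 5396 and 5599.9 at 2 days and 6996 and 6849 after withdrawal (log2 change 0.81, adjusted p = 0.0088). Tdgf1 had adjusted p-values of 0.0874 and 0.0737 without withdrawal replicates 1 and 2. Pmepa1, an inhibitor of TGF-beta signalling, was at 220.1 and 208 untreated, 447 and 407 at 2 days and 357 and 373 after withdrawal (log2 change 0.77, adjusted p = 0.0212). Pmepa1 had adjusted p-values of 0.0692 without untreated replicate 2, 0.113 and 0.138 without withdrawal replicates 1 and 2. No Nodal target was called without withdrawal replicate 1 or without replicate 2, where the adjusted p of these 3 lay between 0.0719 and 0.138, and 4 and 6 were called without untreated replicates 1 and 2.

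Feedback genes of FGF and ERK signalling did not share a direction. Besides Egr1 and Fos, which are on this list too, 2 of 20 were lower (1.07% among all genes). Spry4, a feedback inhibitor gene, was at 748 and 584 untreated, 33.7 and 20.3 at 2 days and 312 and 328 after withdrawal (log2 change -1.05, adjusted p = 0.0313). Spry4 had adjusted p-values of 0.0788 without untreated replicate 1, 0.179 and 0.139 without withdrawal replicates 1 and 2. Spred1, another inhibitor gene, was at 1205 and 1374 untreated and 980.0 and 1009 after withdrawal (log2 change -0.37, adjusted p = 0.046). Spred1 had adjusted p-values of 0.175 without untreated replicate 2, 0.24 and 0.166 without withdrawal replicates 1 and 2. Fgf17 and Fgfbp1 are not on this list and were named for the size of their change. The FGF ligand gene Fgf17 was at 75.9 and 120.2 untreated, 11.6 and 8.38 at 2 days and 29.3 and 22.5 after withdrawal (log2 change -1.86, adjusted p = 0.00803). Fgf17 had an adjusted p of 0.0871 without withdrawal replicate 2. Fgfbp1, which encodes a carrier of FGFs, was at 225 and 213 untreated, 265 and 303 at 2 days and 105 and 90.4 after withdrawal (log2 change -1.16, adjusted p = 0.00783). Fgfbp1 had an adjusted p of 0.0842 without withdrawal replicate 2. The last of these was above untreated at 2 days and below it after withdrawal.

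Each list of pluripotency genes held at most 1 call in each direction, where 1.72% of all genes were called higher and 1.07% lower. Of 12 core genes Lin28a was lower and Tdgf1 higher, both given above, and the median log2 change was -0.0061 (2 days against untreated, -0.35). Of 22 naive-state genes only Mylpf, which is used as a marker of that state in mouse cells, was called, with a median of 0.15. That median was 0.26 without untreated replicate 1 and -0.095 without untreated replicate 2, so its sign depends on the untreated library. Zfp42, the REX1 gene, was at 11173 and 12106 untreated and 10372 and 10379 after withdrawal (log2 change -0.16, adjusted p = 0.162), and Klf4 at 3379.8 and 1915 untreated and 4006 and 3788 after withdrawal (log2 change 0.61, adjusted p = 0.0976). Of 16 formative and primed epiblast genes, Cldn6, a tight junction gene, was called lower, at 77.2 and 104 untreated and 38.3 and 50.4 after withdrawal (log2 change -1.01, adjusted p = 0.0362). Cldn6 had adjusted p-values of 0.139 without untreated replicate 2, 0.25 and 0.0842 without withdrawal replicates 1 and 2.

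The p53 targets, of which 31 of 40 were called higher at 2 days of auxin (21.0% among all genes) with a median of 1.17, had none called higher and 3 called lower after withdrawal (1.07% among all genes), with a median of -0.071. Mdm2, a p53-induced gene whose product marks p53 for degradation, was at 2475 and 2434 untreated, 7719.7 and 7623 at 2 days and 2421 and 2219 after withdrawal (log2 change -0.082, adjusted p = 0.684). Cdkn1a, the gene of the cell cycle inhibitor p21, was at 1523 and 1537 untreated, 5492 and 5486 at 2 days and 1365 and 1504 after withdrawal (log2 change -0.094, adjusted p = 0.589). Trp53 itself was at 9228 and 8372 untreated and 8409.9 and 8587 after withdrawal. Of the 40 targets 17 lay below both untreated libraries after withdrawal and 7 above (22.7% and 20.7% among all genes). The members called lower were Ccng1, Eda2r and Psrc1. Ccng1, a cyclin G gene, was at 4749.6 and 4589 untreated and 3472 and 3906 after withdrawal (log2 change -0.34, limma adjusted p = 0.0138). Its call ended without withdrawal replicate 1. Eda2r, a receptor gene, had a log2 change of -0.61 (limma adjusted p = 0.0129), and its call ended without withdrawal replicate 1 or 2. Psrc1, a spindle protein gene, had a log2 change of -0.32 (limma adjusted p = 0.0261). Psrc1 had adjusted p-values of 0.0519 without untreated replicate 1, 0.0932 and 0.187 without withdrawal replicates 1 and 2. The number called lower was 5 without untreated replicate 1, 4 without untreated replicate 2, 0 without withdrawal replicate 1 and 1 without withdrawal replicate 2, and 6 members were called higher without untreated replicate 1 and 1 without untreated replicate 2.

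Targets of ATF4, which is translated when the integrated stress response is on, had 31 of 41 members lower at 2 days (23.8% among all genes) and 2 lower after withdrawal (1.07%), with medians of -0.83 and -0.084. After withdrawal 18 of the 41 lay below both untreated libraries and 5 above (22.7% and 20.7% among all genes). The 2 called lower after withdrawal encode neighbouring enzymes of serine synthesis. Phgdh, the first enzyme, was stable at 3601 and 3926 untreated, 925 and 991 at 2 days and 2345 and 2434 after withdrawal (log2 change -0.65, standard error 0.072, limma adjusted p = 0.000626). Psat1, which follows it, was at 9066 and 8326 untreated, 2090.4 and 2138 at 2 days and 6352 and 6029 after withdrawal (log2 change -0.49, adjusted p = 0.00717). Psat1 had an adjusted p of 0.078 without withdrawal replicate 2. Psph, the last enzyme of the pathway, added after its values were seen, was at 665 and 734 untreated and 778 and 703 after withdrawal (log2 change 0.082, adjusted p = 0.746).

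No gene of the ribosome assembly lists was called, where 2.79% of all genes were. For the small subunit none of 59 members was called, the median log2 change was -0.062, and 20 lay below both untreated libraries and 6 above, where 22.7% and 20.7% of all genes did. At 2 days 44 of the 59 were called lower (23.8% among all genes) with a median of -0.36. The large subunit list had 0 of 55 called and a median of -0.066 (2 days, -0.35), and the RNA polymerase I list 0 of 15 and -0.068 (2 days, -0.29). Of the 55 large subunit members 19 lay below both untreated libraries and 3 above, and of the 15 polymerase members 5 lay below and 5 above. With any one of the 4 libraries left out, the small subunit median lay between -0.085 and -0.013.

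The cell cycle lists gave 1 call. Of 40 genes of the G1/S transition and DNA replication 39 were called lower at 2 days (23.8% among all genes) and 1 after withdrawal (1.07%), with medians of -0.96 and -0.012. The called gene was Ccne1, the cyclin E1 gene, at 4139.8 and 3734 untreated, 1231 and 1133 at 2 days and 3029 and 2988 after withdrawal (log2 change -0.39, adjusted p = 0.0313). Ccne1 had adjusted p-values of 0.0743 without untreated replicate 1, 0.158 and 0.162 without withdrawal replicates 1 and 2. Mitosis genes had 33 of 37 lower at 2 days (the same 23.8% among all genes) and none called after withdrawal (medians -0.84 and -0.019). The aryl hydrocarbon receptor target genes Cyp1a1 and Cyp1b1, cytochrome P450 genes, were at 749 and 813 and at 153 and 166 in the 2 day libraries. After withdrawal they were at 75.1 and 38.4 and at 13.4 and 13.8, which overlapped the untreated values of 74.5 and 49.8 and of 13.6 and 14.2.

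**Figure D3:**
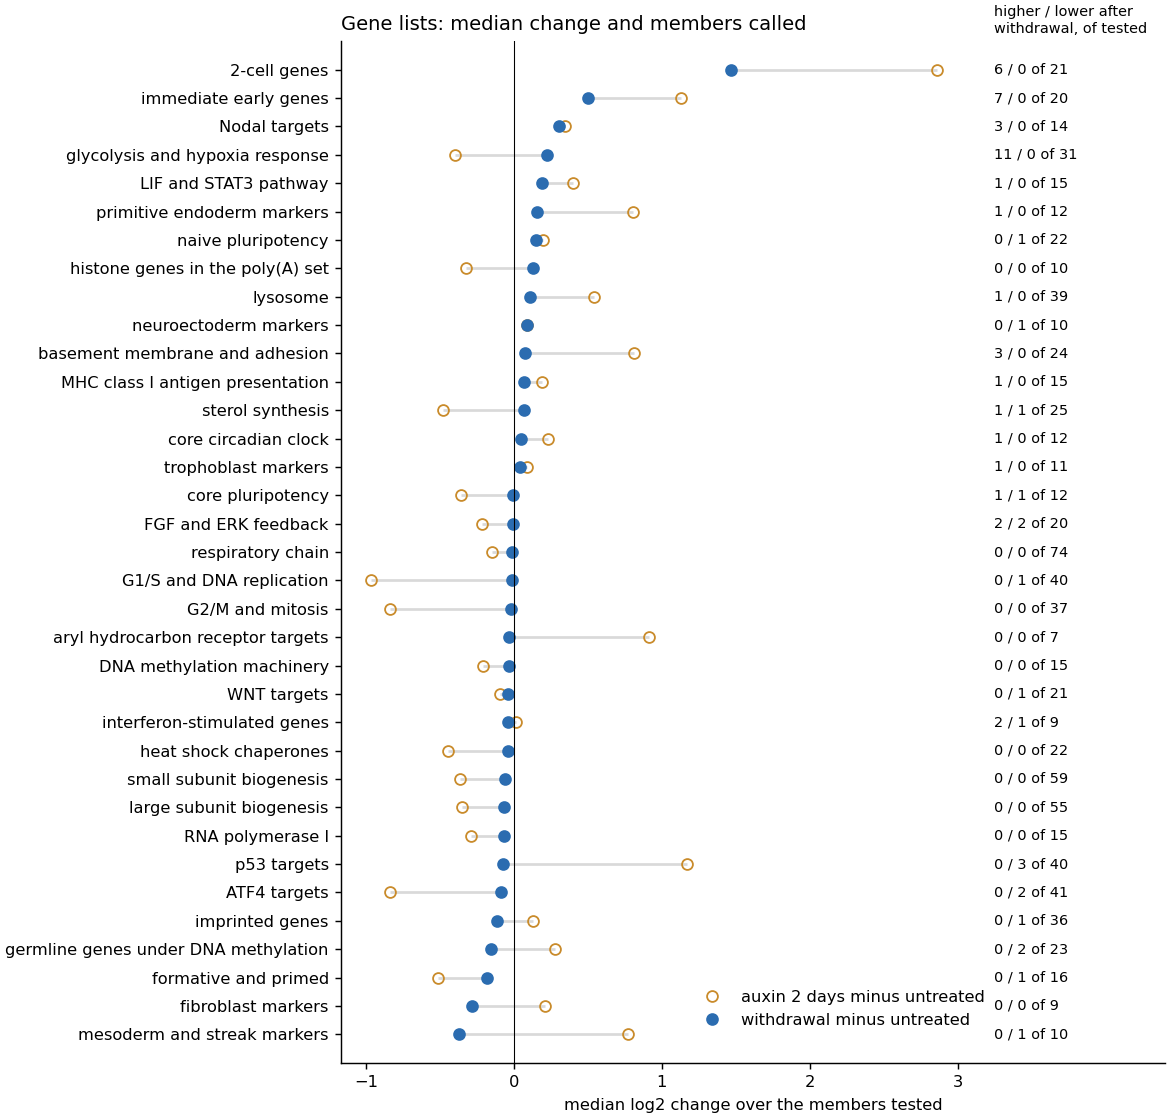
Median log2 change over the tested members of 35 gene lists for 2 days of auxin (open orange circles) and withdrawal (filled blue circles), both against the same untreated libraries, with the number of members called higher and lower after withdrawal and the number tested at the right. The 2-cell, immediate early and Nodal lists lie farthest to the right after withdrawal, and the ribosome, p53 and cell cycle lists lie near 0.

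Several other lists held 1 to 3 calls each, where 2.79% of all genes were called, 1.72% higher and 1.07% lower. With lists this short, 1 call is near that background. Of 25 sterol synthesis genes tested, Insig1, a feedback regulator gene, was higher at 1413 and 1304 untreated and 1908 and 1759 after withdrawal (log2 change 0.43, adjusted p = 0.00824). Insig1 had an adjusted p of 0.109 without withdrawal replicate 1. In the basement membrane and adhesion list 3 of 24 were higher: fibronectin gene Fn1 (log2 change 0.33, adjusted p = 0.015, but 0.0924 and 0.137 without withdrawal replicates 1 and 2), collagen IV gene Col4a1 (log2 change 0.98, adjusted p = 0.0159, but 0.102 and 0.115 without withdrawal replicates 1 and 2) and nidogen gene Nid1 (log2 change 0.61, adjusted p = 0.0451). Nid1 had adjusted p-values of 0.123 without untreated replicate 2, 0.193 and 0.195 without withdrawal replicates 1 and 2. Of 9 interferon-stimulated genes tested Bst2, an antiviral membrane protein gene, was lower at 396 and 276 untreated and 148 and 134 after withdrawal (log2 change -1.23, adjusted p = 0.00502, but 0.0568 without withdrawal replicate 2), while Parp14 (log2 change 1.65, adjusted p = 0.0212, but 0.0511 without untreated replicate 1, 0.115 and 0.138 without withdrawal replicates 1 and 2) and Ifitm3 (log2 change 0.49, adjusted p = 0.0226, but 0.104 without untreated replicate 2, 0.152 and 0.118 without withdrawal replicates 1 and 2) were higher. Of 23 germline genes, the germ cell helicase gene Ddx4 and the piRNA pathway gene Piwil2 were lower. Ddx4 had a log2 change -0.66, adjusted p = 0.0359, but 0.0924 without untreated replicate 2, 0.246 and 0.0886 without withdrawal replicates 1 and 2. Piwil2 had a log2 change -0.82, adjusted p = 0.0384, but 0.101 without untreated replicate 1, 0.12 and 0.217 without withdrawal replicates 1 and 2. The imprinted gene list, with 36 members tested, does not hold Dio3 and does not cover all imprinted genes. On it Plagl1, a zinc finger gene, was lower at 3760.4 and 4424 untreated and 2819.5 and 3184 after withdrawal (log2 change -0.44, adjusted p = 0.0419). Plagl1 had adjusted p-values of 0.174 without untreated replicate 2, 0.286 and 0.0934 without withdrawal replicates 1 and 2. In the WNT target list of 21, Cdx1 was lower (log2 change -0.91, adjusted p = 0.0491). Cdx1 had adjusted p-values of 0.149 without untreated replicate 1, 0.317 and 0.0953 without withdrawal replicates 1 and 2. Of 15 genes of the LIF pathway the kinase gene Jak1 was higher (log2 change 0.36, adjusted p = 0.0392, but 0.142 without untreated replicate 2, 0.198 and 0.166 without withdrawal replicates 1 and 2), and of 39 lysosome genes the galactosidase gene Glb1 (log2 change 0.58, adjusted p = 0.00464). Glb1 had an adjusted p of 0.0546 without withdrawal replicate 1. Of 15 MHC class I presentation genes Tapbp, the tapasin gene, was higher (log2 change 0.83, adjusted p = 0.0298, but 0.111 without untreated replicate 2, 0.162 and 0.141 without withdrawal replicates 1 and 2), and of 12 circadian clock genes Bhlhe40, a transcriptional repressor gene (log2 change 1.20, adjusted p = 0.0377). Bhlhe40 had adjusted p-values of 0.152 without untreated replicate 2, 0.193 and 0.157 without withdrawal replicates 1 and 2. No member was called among 74 respiratory chain, 22 heat shock, 15 DNA methylation, 10 histone or 7 aryl hydrocarbon receptor genes.

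**Figure D4:**
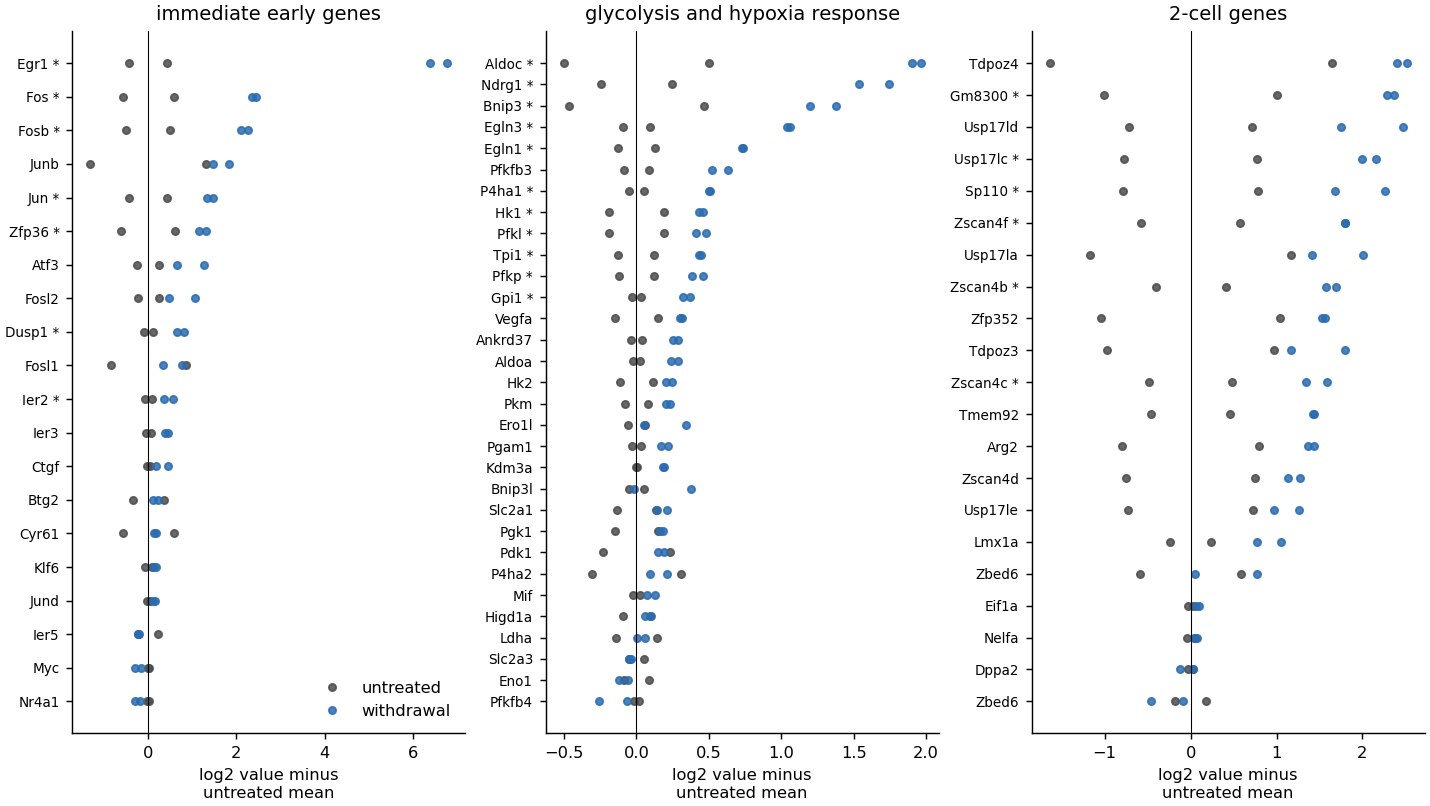
Log2 values of each tested member of the immediate early, glycolysis and hypoxia, and 2-cell lists in the 2 untreated (grey) and 2 withdrawal (blue) libraries, relative to the untreated mean of the gene, with 1 point per library, a separate horizontal scale in each panel, and an asterisk where limma's adjusted p was below 0.05. Zbed6 appears as 2 entries because the table has 2 gene identifiers with this name, and in the 2-cell panel the grey points of most members lie far apart.

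Among the genes with the largest changes outside the lists, A2m, a protease inhibitor gene, was at 169.7 and 42.6 untreated, 238 and 245 at 2 days and 455 and 565 after withdrawal (log2 change 2.56, adjusted p = 0.00767). A2m had adjusted p-values of 0.0538 and 0.078 without withdrawal replicates 1 and 2. Anxa1, a phospholipid-binding annexin gene, was at 33.6 and 11.2 untreated, 136 and 142 at 2 days and 85.02 and 90.04 after withdrawal (log2 change 2.11, adjusted p = 0.0129). Anxa1 had adjusted p-values of 0.0953 and 0.0997 without withdrawal replicates 1 and 2. The carboxypeptidase gene Cpe was at 93.2 and 36.6 untreated, 313 and 322 at 2 days and 219 and 190.1 after withdrawal (log2 change 1.78, adjusted p = 0.00824). Cpe had adjusted p-values of 0.0922 and 0.0617 without withdrawal replicates 1 and 2. Slc1a1, a glutamate transporter gene, was at 52.7 and 18.8 untreated, 233 and 227 at 2 days and 122 and 112 after withdrawal (log2 change 1.85, adjusted p = 0.011). Slc1a1 had adjusted p-values of 0.0971 and 0.0767 without withdrawal replicates 1 and 2. In these 4 genes untreated replicate 1 was the higher untreated library. Slc13a5, a citrate transporter gene, was at 276 and 63.1 untreated and 518 and 425 after withdrawal (log2 change 1.82, adjusted p = 0.0489). Slc13a5 had adjusted p-values of 0.12 without untreated replicate 2, 0.257 and 0.159 without withdrawal replicates 1 and 2. Catip was at 34.6 and 35.4 untreated and 109.6 and 125 after withdrawal (log2 change 1.71, adjusted p = 0.0299, but 0.0713 without untreated replicate 2, 0.134 and 0.166 without withdrawal replicates 1 and 2), with 22.1 and 17.2 at 2 days.

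On the lower side, Clcn5, a chloride transporter gene, was at 790.4 and 722 untreated, 755 and 864 at 2 days and 322 and 257 after withdrawal (log2 change -1.39, adjusted p = 0.00717). Clcn5 had an adjusted p of 0.0813 without withdrawal replicate 2. Acot1, an acyl-CoA thioesterase gene, was at 138 and 124 untreated, 80.4 and 50.4 at 2 days and 49.6 and 55.7 after withdrawal (log2 change -1.30, adjusted p = 0.00717). Acot1 had an adjusted p of 0.074 without withdrawal replicate 1. Elovl4, a fatty acid elongase gene, was at 92.6 and 121 untreated, 172 and 176 at 2 days and 38.7 and 52.4 after withdrawal (log2 change -1.22, adjusted p = 0.0137, but 0.0676 without untreated replicate 2, 0.147 without withdrawal replicate 1), so it was above untreated at 2 days. Ikzf4, an Ikaros family transcription factor gene, was at 99.9 and 167 untreated, 68.4 and 69.2 at 2 days and 44.5 and 43.5 after withdrawal (log2 change -1.53, adjusted p = 0.00855). Ikzf4 had adjusted p-values of 0.074 and 0.0767 without withdrawal replicates 1 and 2. The zinc finger gene Zfp566 was at 412 and 461 untreated and 171 and 203 after withdrawal (log2 change -1.22, adjusted p = 0.0142). Zfp566 had adjusted p-values of 0.0605 without untreated replicate 2, 0.137 and 0.073 without withdrawal replicates 1 and 2.

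Lists of markers of other cell types gave at most 1 call each. Of 12 primitive endoderm markers tested only Col4a1 was higher. The defining marker Gata4 was at 24.1 and 23.6 untreated and 27.7 and 12.6 after withdrawal, and Pdgfra at 11.2 and 26.3 untreated and 21.2 and 11.7 after withdrawal. Dab2, another marker of this kind, was at 29.3 and 22.3 untreated and 36.9 and 52.2 after withdrawal and was not called. Of the 12 markers 4 lay above both untreated libraries and 1 below (20.7% and 22.7% among all genes). The summed level of that list was 13240 and 9392 untreated, 14420 and 13240 after withdrawal. Of 11 trophoblast markers the keratin gene Krt8 was higher (log2 change 0.73, adjusted p = 0.046, but 0.206 without untreated replicate 2, 0.201 and 0.192 without withdrawal replicates 1 and 2), Cdx2 was at 67.1 and 35.6 untreated and 14.6 and 20.3 after withdrawal, and the list summed to 2455 and 2494 against 2320 and 2440. Of 10 mesoderm markers Mesp2 was lower (log2 change -1.20, adjusted p = 0.0499, but 0.0717 and 0.0932 without untreated replicates 1 and 2, 0.222 and 0.172 without withdrawal replicates 1 and 2), and T, the brachyury gene, was at 33.6 and 22.2 untreated and 13.3 and 8.26 after withdrawal. Those 10 summed to 514 and 633 untreated and 605 and 617 after withdrawal. Among them 1 lay above both untreated libraries and 3 below, and among the 11 trophoblast markers 2 lay above and 5 below. Of 10 neuroectoderm markers Stmn2 was lower at 6167 and 5833 untreated and 4787 and 4412 after withdrawal (log2 change -0.38, adjusted p = 0.00824). Stmn2 had an adjusted p of 0.104 without withdrawal replicate 2. The 10 markers summed to 9649 and 8685 untreated and 8132 and 7648 after withdrawal, and most of each sum was Stmn2. Their median log2 change was 0.086. Of the 10, 2 lay above both untreated libraries and 2 below (20.7% and 22.7% among all genes). None of 9 fibroblast markers was called, and their sums were 7570 and 3972 against 5847 and 5707. The part of these levels in the results above was not tested.

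Called genes lay on every autosome and on the X chromosome. On the 19 autosomes between 1.12% and 3.38% of tested genes were called higher and between 0.466% and 1.81% lower. On the X chromosome 2 of 485 tested genes (0.412%) were called higher and 12 (2.47%) lower, the latter including Clcn5 and Eda2r. The untreated libraries differed there from each other: the median log2 difference of X-linked genes between untreated replicates 1 and 2 was 0.22, against -0.019 to 0.046 on the autosomes. Withdrawal replicates 1 and 2 lay 0.19 and 0.20 below untreated replicate 1 on this scale (medians of -0.19 and -0.20), and 0.060 and 0.059 above untreated replicate 2. The X-linked level thus differed more between the untreated libraries than between withdrawal and untreated replicate 2, and its part in the 12 calls was not tested.

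**Figure D5:**
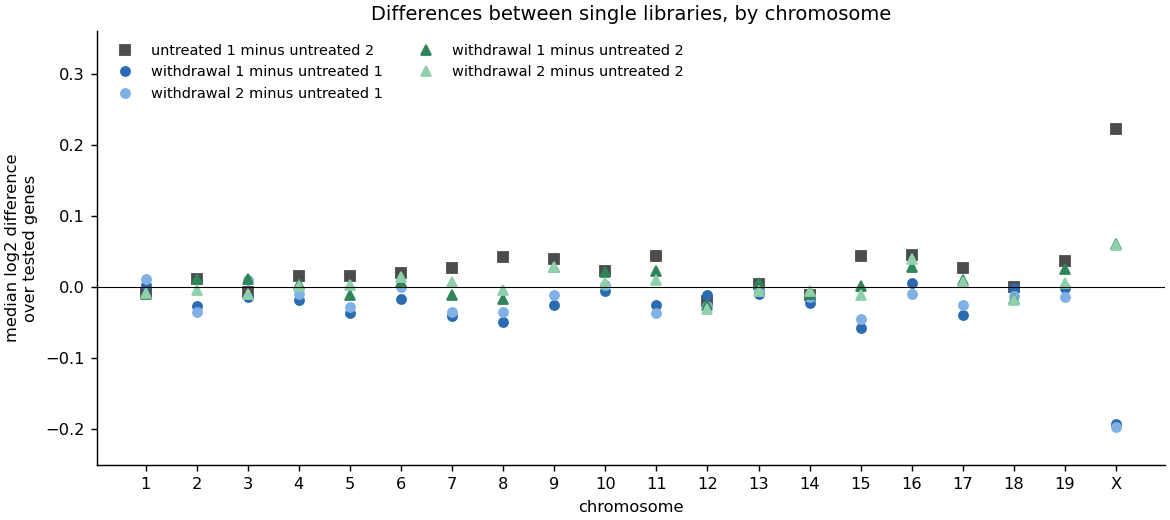
Median log2 difference over the tested genes of each chromosome (vertical axis) between the untreated libraries (squares), between each withdrawal library and untreated replicate 1 (circles), and between each withdrawal library and untreated replicate 2 (triangles). The medians of all autosomes lie within 0.057 of 0, and on the X chromosome the squares are at 0.22 and the circles at -0.19 and -0.20.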

How the data were processed

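The authors deposited 1 table of signal values called normalized counts, 1 value per gene and library, none pooled. The values are not whole numbers. How they were scaled was not stated, nor were the annotation and gene filter. Trim Galore, STAR, RSEM, DESeq2 and mm10 (the same assembly as GRCm38) are named, with no versions, by the submitters' processing notes. Per the labels' protocols, mRNA was purified from total RNA. Raw read depth is unknown from this table.

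Values were analysed as log2(value + 1), which understates fold changes of low genes. One limma model (limma 3.58.1, R 4.3.3) held a mean for each of 8 groups over the 16 libraries, used a trended variance, left 8 residual degrees of freedom, and its p-values were adjusted by Benjamini-Hochberg. Other pseudocounts, filters, scalings, weights, a replicate block and left-out libraries were tried. The code was tested on simulated data. Named genes are 13 fixed genes, up to 15 called genes in each direction by size and 5 by the gap between the nearest libraries (mean of at least 50 over the 4 libraries, no predicted-gene names), up to 4 members of each of 35 lists, and any called member; not all are printed, and 1 called list member is not reported here. Members and lists were chosen with earlier results of these data known. Lists are described by counts and medians, with no set test. Gene positions are from GENCODE vM21, which held 14467 of 14552 identifiers. Promoters are from RefSeq (GRCm38.p6), matched by symbol for 9825 of 13338 gene names, were searched on both strands and were aligned with Biopython 1.88.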

Additional observations from a re-analysis of the deposited data

How the results depend on the processing

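The direction of the difference held for all 373 called genes under each alternative, and none changed sign. Because both withdrawal libraries lay on the same side of both untreated ones in each gene, only the rescalings could have changed it. For the other alternatives the sign was fixed in advance and is no test. Pseudocounts of 0.5 and 5, no filter on low values, a mean of at least 50 and rescaling by trimmed means of M values or by upper quartiles gave 352 to 377 called genes, each within 1.5 times of 373. With limma's array weights 130 genes were called, all among the 373, and 49 of them were at least 2-fold changed against 131. The fit of the 4 libraries alone called 1 gene, which was also the only one at least 2-fold changed. With each library left out in turn the calls ranged from 67 to 1106, and those at least 2-fold changed from 36 to 438. The lone library of a group was then taken to vary like the other groups. For the 180 genes covered by the naming rule, 1982 values under the alternatives stayed on the same side of the threshold, 307 lost and 36 gained a call. Labels give both groups replicate numbers 1 and 2, but deviations of the same number had a correlation of 0.037 over genes, so the numbers were not taken as pairs. With the replicate number as a block, 306 genes were called (120 at least 2-fold), of which 288 were among the 373. With 2 libraries a group, standard errors had a median of 0.158 (log2), which limits what could be detected at low levels.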

Other observations

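The genes given here were chosen after their values were seen, from no list, and stand only for themselves. Scd1, Me1, Tfrc and Sfrp1 held their call with each of the 4 libraries left out. Scd1, a fatty acid desaturase gene, was at 2310.5 and 2781 in untreated cells, 1596 and 1603 at 2 days of auxin and 4124 and 4257 after withdrawal (log2 change 0.72, standard error 0.09, limma adjusted p = 0.00146). Me1, a malic enzyme gene that supplies NADPH, was at 1332 and 1257 untreated and 1975 and 1943 after withdrawal (log2 change 0.60, adjusted p = 0.0034). Tfrc, the transferrin receptor gene, was at 6841 and 6511 untreated, 5176 and 5308 at 2 days and 9835 and 9927 after withdrawal (log2 change 0.57, adjusted p = 0.00416). In Scd1 and Tfrc the 2 day libraries lay below and the withdrawal libraries above the untreated pair, and Sfrp1, a secreted inhibitor of WNT signalling, showed the same order at 1826 and 1709 untreated, 1235 and 1175 at 2 days and 2614 and 2608 after withdrawal (log2 change 0.56, adjusted p = 0.00182).

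Other single genes, chosen in the same way, were lower. Scube3, a secreted glycoprotein gene, was at 786 and 766 untreated, 1173 and 1298 at 2 days and 449 and 418 after withdrawal (log2 change -0.84, standard error 0.095, limma adjusted p = 0.000731) and held its call with each library left out. Gli1, a zinc finger transcription factor gene, was at 167 and 179.7 untreated and 101 and 68.1 after withdrawal (log2 change -1.06, adjusted p = 0.0113). Gli1 had an adjusted p of 0.117 without withdrawal replicate 2. Evc, a ciliary gene, had a log2 change -1.08, adjusted p = 0.0188, but 0.0968 without untreated replicate 2, 0.175 without withdrawal replicate 1, and its neighbour Evc2 a log2 change -0.99, adjusted p = 0.00601, but 0.0696 without withdrawal replicate 2.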
